A study of Mus musculus with 12 samples.

Results

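Fibroblast growth factor (FGF) signalling was followed through 10 genes, the 6 ligands Fgf1, Fgf2, Fgf3, Fgf7, Fgf8 and Fgf10 and the 4 receptors Fgfr1, Fgfr2, Fgfr3 and Fgfr4, out of 20660 genes named on the array. They were taken by name, through the transcript accession printed for each probe, and not by their measured values, which gave 18 probes. The samples were mammary tumours of FVB mice carrying the MMTV-Wnt1 transgene, in which a viral promoter active mainly in mammary epithelium drives Wnt1, so that all samples share this oncogene. The mice were either Rarb -/- (KO) or Rarb +/+ (WT), and Rarb encodes retinoic acid receptor beta, a nuclear receptor for retinoids. Each tumour was cut by laser capture microdissection into epithelium and stroma, and each RNA was labelled with Cy3 and put on an Agilent array together with a Cy5-labelled Universal Mouse Reference RNA. There were 12 arrays in 4 groups of 3, with tumours 1, 3 and 4 for KO and 1, 2 and 3 for WT, each giving both compartments. Neither the age of the mice nor their number is stated in the labels, so that each p-value reflects how far these samples spread and may not reflect how far mice do.

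FGF ligands are secreted proteins that bind receptor tyrosine kinases together with heparan sulfate chains at the cell surface. The bound receptors signal through the adaptor Frs2 and the Ras and MAP kinase cascade, which induces transcription factors of the Etv family and feedback inhibitors such as the Sprouty and Dusp proteins. In the mammary gland Fgf7 and Fgf10 are typically products of stromal cells and act on the epithelial form of Fgfr2, while Fgf3 and Fgf8 are best known from mouse mammary tumours, where they were found activated by proviral insertion and cooperate with Wnt1.

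The promoter of Fgf7 is shown because Fgf7 was the single member that passed the test between genotypes, and that of Fgf3 because its probe gave signal on a single array. Each run holds the 250 bases before the annotated start, 5′ to 3′ on the gene's strand, from RefSeq on GRCm38.p6. Capitals mark matches on either strand to AGGTCA, the core element bound by retinoid receptors, or to CTTTGA or CTTTGT, the core bound by the TCF and LEF factors of the Wnt pathway. The motifs searched do not overlap in these runs.
Fgf7, chr2:126034408-126034657, plus strand: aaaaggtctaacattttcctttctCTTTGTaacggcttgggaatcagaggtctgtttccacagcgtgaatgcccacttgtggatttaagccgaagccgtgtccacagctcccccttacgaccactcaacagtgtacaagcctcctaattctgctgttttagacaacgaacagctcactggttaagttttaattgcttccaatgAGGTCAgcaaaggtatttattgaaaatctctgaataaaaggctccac
Fgf3, chr7:144838362-144838611, plus strand: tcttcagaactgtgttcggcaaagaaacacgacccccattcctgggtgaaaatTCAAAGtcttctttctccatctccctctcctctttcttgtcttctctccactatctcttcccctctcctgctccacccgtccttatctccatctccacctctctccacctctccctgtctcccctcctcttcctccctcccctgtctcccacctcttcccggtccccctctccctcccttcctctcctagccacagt
The Fgf7 run holds AGGTCA between 47 and 42 bases before the start and CTTTGT between 226 and 221 bases before it. The Fgf3 run holds CTTTGA on the minus strand between 197 and 192 bases before the start and no AGGTCA. Among 32851 promoter windows of the same length, 14.0% held AGGTCA and 27.6% a TCF/LEF core, so these matches are common, and they are a description of the letters. Of the 10 genes 7 had a promoter in the table, in 8 windows, and the windows of the other 5 of these genes held no match.

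All ratios are log2 of tumour over reference, so a value of 1 is a signal 2-fold that of the reference. Between 36% and 46.3% of an array's probes had Cy3 well above background, none of the spots was saturated, and precision is limited by the small number of arrays. The kept Rarb probe did not separate the genotypes, with ratios from -1.13 to 1.36 in KO epithelium against -0.76 to 0.85 in WT epithelium, and from 0.57 to 2.09 in KO stroma against -0.29 to 1.37 in WT stroma. Its place relative to the deletion is unknown here, so it checks nothing about the labels. The brighter Wnt1 probe lay between 7.05 and 7.67 in both epithelia, between 6.53 and 7.20 in WT stroma and between 2.90 and 3.80 in KO stroma.

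The labelled compartments were checked against marker genes before the FGF genes were read. The mean log2 ratio of 13 epithelial markers lay between 3.52 and 4.08 in KO epithelium, between 3.05 and 3.78 in WT epithelium, between 1.70 and 2.24 in KO stroma and between 3.26 and 3.61 in WT stroma. All 3 WT stroma arrays thus overlapped the epithelial arrays in epithelial markers. The mean of 14 fibroblast markers lay between -2.52 and -0.12 in KO epithelium, between -1.68 and 0.89 in WT epithelium, between 2.83 and 3.19 in KO stroma and between 0.09 and 1.55 in WT stroma. From 11 to 13 of the 13 epithelial markers and 13 or 14 of the 14 fibroblast markers were well above background on each array, so markers of both sets were seen in every fraction.

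**Figure D1:**
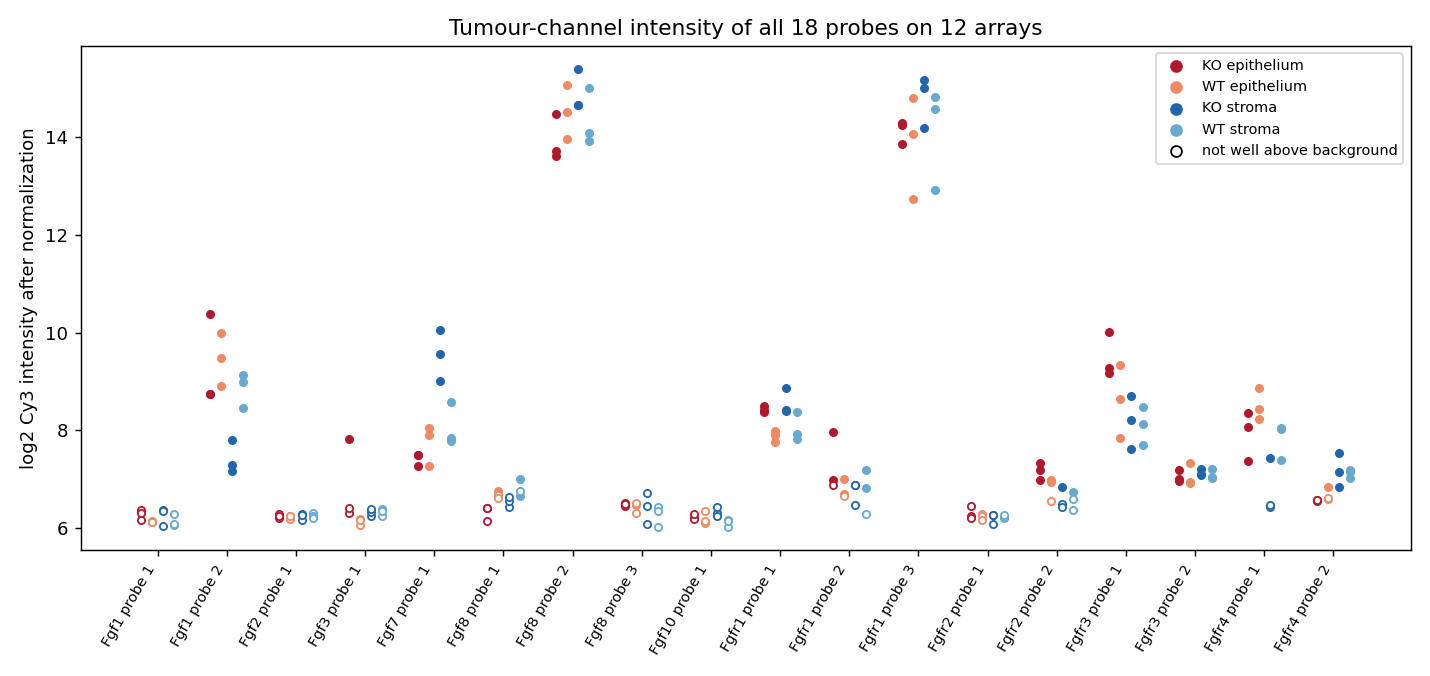
Log2 Cy3 intensity (vertical axis) of all 18 probes for the 10 genes on the 12 arrays, by group. Open points were not well above background. A single Fgf8 and a single Fgfr1 probe lie between 12.73 and 15.40, above every other probe.

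Detection differed widely among the 10 genes. Fgf1, Fgf7, Fgf8, Fgfr1, Fgfr2, Fgfr3 and Fgfr4 had at least 1 probe well above background on 3 or more arrays and were tested, and these 7 genes had 12 such probes. Fgf2, Fgf3 and Fgf10 were not tested. Fgf2, a ligand of broad tissue range, stayed at background in both colours on all 12 arrays, with group means between 0.02 and 0.08 from a probe spotted 10 times per array. Fgf10, a ligand that in the embryo is needed for the mammary buds, was likewise at background in the tumour channel throughout, although the reference was well above it on 11 of 12 arrays. Its ratios from 10 spots per array ran from -0.96 to -0.42, highest in KO stroma (-0.56, -0.42 and -0.53), and with the tumour signal at background this order is not read as one of expression.

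Fgf3 had signal on a single array, KO epithelium replicate 1, where its ratio was 1.71 and its raw median Cy3 signal 208 over a local background of 24. On the other 11 arrays the ratio ran from -0.18 to 0.28, the raw median Cy3 signal ran from 64 to 113, and the probe was not well above background. The stroma of the same tumour gave -0.07, and the other KO epithelia gave 0.01 and -0.14. Fgf3 therefore stood out in the epithelium of 1 of 6 tumours, and no test was made of a single array. In the RefSeq table its neighbours include Fgf4 and Fgf15, also ligands, and Ccnd1, the gene of cyclin D1. On the same array Fgf4 gave 0.23 and Fgf15 0.07, neither well above background. Ccnd1 gave 1.27 there against 1.11 and 1.01 on the other KO epithelia, and Ano1, a chloride channel gene, 4.94 against 3.92 and 4.72. Fadd, an adaptor gene of death receptors, gave 0.31 against 0.08 and -0.22, Ppfia1 0.22 against 0.19 and 0.02, and LTO1 0.20 against 0.59 and 0.55. A further neighbour, Tpcn2, gave -0.17 against 0.23 and 0.01, not well above background. The array with Fgf3 signal was thus the highest of the KO epithelia for Ccnd1, Ano1, Fadd and Ppfia1 and the lowest for LTO1 and Tpcn2. WT epithelium replicate 1, without Fgf3 signal, was higher still for Ano1 (5.03) and Ppfia1 (0.61). The WT epithelia stayed below the array with Fgf3 signal for Ccnd1 (at most 0.93) and Fadd (at most 0.21).

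Fgf7, also known as keratinocyte growth factor, was the member with the clearest difference. Its ratios were -4.20, -4.37 and -4.09 in KO epithelium (replicates 1, 3 and 4) and -3.69, -3.58 and -4.32 in WT epithelium (replicates 1, 2 and 3). They were -1.83, -1.28 and -2.21 in KO stroma and -3.55, -3.77 and -2.83 in WT stroma. The 3 KO stroma arrays were above all other arrays, and the WT stroma arrays overlapped the epithelium. All ratios were negative, and Fgf7 was bright in the reference (mean log2 Cy5 intensity 11.62 on the epithelial and 11.38 on the stromal slide), with the tumour channel well above background on all 12 arrays as well.

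Between genotypes in stroma, Fgf7 was 3.05-fold higher in KO (log2 fold change 1.61, SE 0.31, limma adjusted p = 0.0172). In this comparison 6.37% of 13350 genes were called and 3.51% were called higher, against 1 of the 7 members tested. Fewer cells of a type and less RNA per cell cannot be told apart in such samples. The call was lost without KO stroma replicate 1 (adjusted p = 0.0512), WT stroma replicate 1 (0.0723) or WT stroma replicate 2 (0.0572), in the stromal arrays alone (0.0653) and with the replicate number as a block (0.0533). The log2 fold change lay between 1.36 and 2.05 under all 20 alternatives. Omitting an epithelial array or fitting the stromal arrays alone cannot change this fold change, only its p-value. In epithelium the difference between genotypes was -0.35 (SE 0.31, adjusted p = 0.793) and did not pass.

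Within tumours, Fgf7 was higher in stroma than in epithelium in all 3 KO tumours, by 2.37, 3.09 and 1.88 on the log2 scale for tumours 1, 3 and 4. The mean difference was 2.44 (SE 0.37), a 5.44-fold higher level in stroma (limma adjusted p = 0.00739), and it was called under all 18 alternatives. Several of these cannot change the estimate, such as omitting a WT array. Omitting the epithelial or the stromal array of a KO tumour gives the same fit. In WT tumours 1, 2 and 3 the differences were 0.15, -0.19 and 1.49, with a mean of 0.48 (SE 0.37, adjusted p = 0.784) that did not pass. The difference between the genotypes in this step was 1.96 (SE 0.52) and missed the threshold after adjustment (adjusted p = 0.141, unadjusted p = 0.00749), where 0 of 13350 genes were called and 18.1% had an unadjusted p under 0.05. Compartment and slide cannot be told apart, since each compartment has a slide of its own. For this probe the same reference RNA was 0.24 lower in log2 Cy5 on the stromal slide. A lower reference signal by itself gives a higher ratio, and its part in the difference was not tested. Row and genotype cannot be told apart either, with KO in row 1 of each slide and WT in row 2, and the Fgf7 reference signal differed between rows by 0.04 and -0.13 (KO minus WT) on the epithelial and stromal slides.

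**Figure D2:**
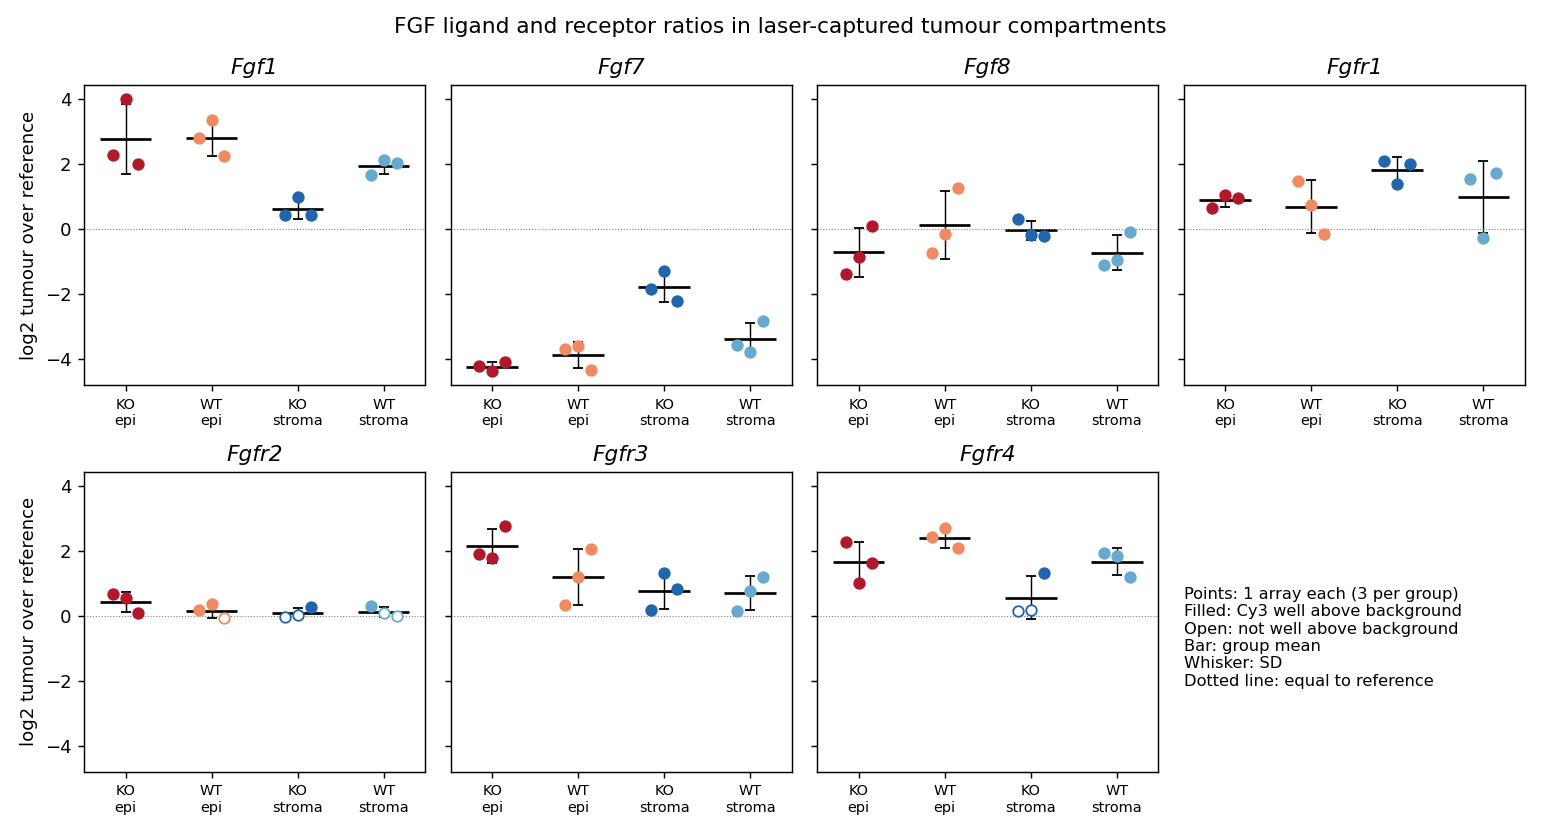
Log2 ratio of tumour over reference (vertical axis) of the 7 tested genes in the 4 groups, a point per array, with the mean as a bar and the SD as whiskers (n = 3). For Fgf7 the KO stroma points, between -2.21 and -1.28, lie above all others, and for Fgf1 the KO stroma points, between 0.43 and 1, lie below all others.

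Fgf1, a ligand that can bind all of the FGF receptors, ran the other way. Its ratios were 2.28, 4.02 and 2.02 in KO epithelium, against 2.80, 3.36 and 2.25 in WT epithelium, 0.45, 1 and 0.43 in KO stroma and 1.66, 2.12 and 2.03 in WT stroma. The KO stroma arrays were below all other arrays, and the epithelial arrays of both genotypes overlapped. Fgf1 was 4.43-fold lower in stroma than in epithelium of KO tumours (-2.15 on the log2 scale with SE 0.33, limma adjusted p = 0.00799). This held under all 18 alternatives (-2.83 to -1.71), of which several cannot change the estimate, as for Fgf7. In all tumours the direction was the same. Fgf1 was lower in stroma in 6 of 6 tumours, by only -0.23 in WT tumour 3, and the WT difference of -0.87 (SE 0.33) missed the threshold (adjusted p = 0.526). For this probe the same reference RNA was 0.27 higher in log2 Cy5 on the stromal slide, and compartment and slide cannot be told apart. A higher reference signal by itself gives a lower ratio, and its part in the difference was not tested. Between genotypes in stroma the difference was -1.31 (SE 0.47, adjusted p = 0.132) with no overlap between the groups, a pattern shown by 26.3% of all genes and by 2 of the 7 members, Fgf1 and Fgf7. Without KO epithelium replicate 3, the highest Fgf1 array, this difference passed the threshold (adjusted p = 0.0363), although that array does not enter the difference itself. In epithelium the genotypes differed by -0.03 (SE 0.47, adjusted p = 0.993), a value whose sign changed under 6 of 21 alternatives. A second Fgf1 probe stayed at background on all 12 arrays.

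Markers of several cell types moved with both ligands. In KO stroma against KO epithelium, where 10.2% of all genes were called higher and 9.86% lower, 14 of 14 fibroblast markers were called higher (median log2 fold change 4.30) and 9 of 13 epithelial markers lower (median -2.15). Macrophage markers were called higher in 8 of 9 cases and lower in 1 (median 2.69), and 4 of 9 endothelial markers were called higher (median 1.49). Of 8 adipocyte markers 2 were called higher (median 2.24), and of 8 T and NK cell markers 0 were called (median 0.72). Without KO tumour 1, 3 or 4 the fibroblast count became 6, 7 or 4, and the epithelial count 8, 7 or 8. The endothelial count became 5, 1 or 2, and the adipocyte count 1, 0 or 1. With any 1 array left out, 6 to 8 macrophage markers were called higher and 0 to 1 lower. In KO against WT stroma, where 3.51% of all genes were called higher and 2.87% lower, 5 of 14 fibroblast markers were called higher (median 2.40), 5 of 13 epithelial markers lower (median -1.16) and 3 of 9 macrophage markers higher (median 1.96), beside 1 macrophage marker that was called lower. Within WT stroma the array with the highest fibroblast mean (replicate 3, 1.55) also had the highest Fgf7 ratio. The same held within WT epithelium (replicate 2, fibroblast mean 0.89 and Fgf7 ratio -3.58). Within KO stroma the array with the highest Fgf7 ratio (replicate 3) had the lowest fibroblast mean (2.83). Within KO epithelium the array with the highest fibroblast mean (replicate 3, -0.12) had the lowest Fgf7 ratio, in a narrow range from -4.37 to -4.09. The array with the highest adipocyte mean had the highest Fgf7 ratio in KO stroma and WT epithelium. In WT stroma and KO epithelium it had the lowest. WT stroma replicate 2, without which the Fgf7 call between genotypes was lost, stood apart in the mean of 8 T and NK cell markers (4.24, against at most 1.23 on the other arrays). With an array left out, 0 to 5 fibroblast and 0 to 5 macrophage markers were called higher in KO against WT stroma, and 2 to 5 epithelial markers lower. With all arrays, 0 endothelial, adipocyte or T and NK cell markers were called there (medians 0.87, 1.39 and -1.30). The part of these markers in the Fgf7 and Fgf1 differences was not tested.

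**Figure D3:**
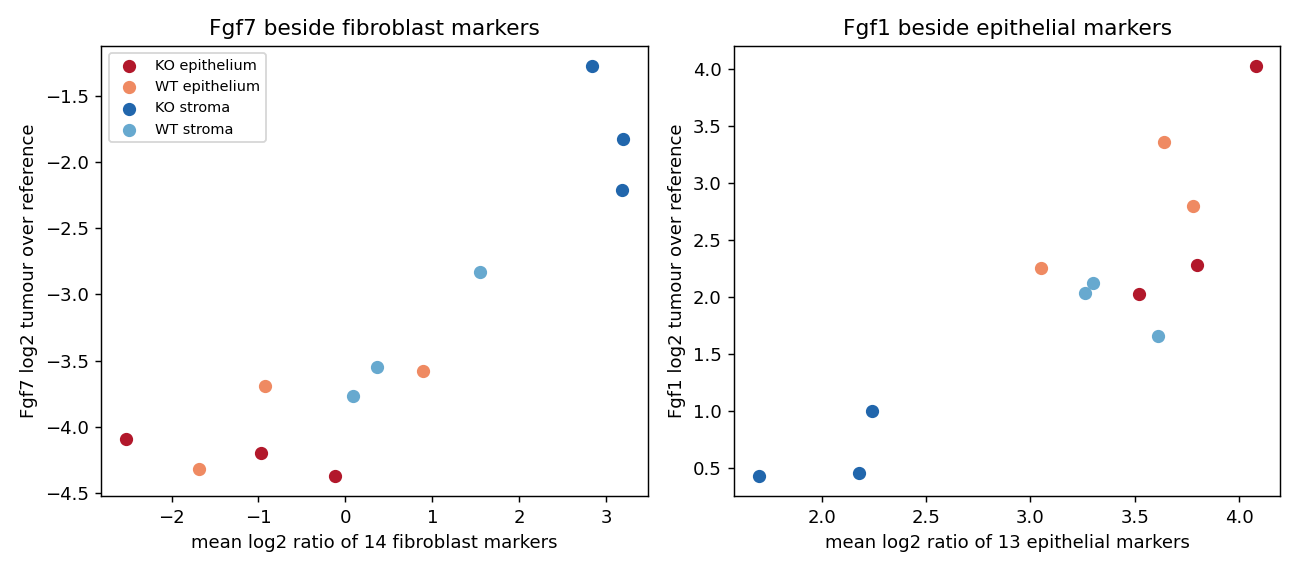
Left, Fgf7 log2 ratio (vertical axis) beside the mean log2 ratio of 14 fibroblast markers; right, Fgf1 log2 ratio beside the mean of 13 epithelial markers, a point per array. The KO stroma arrays hold the highest Fgf7 and fibroblast values (2.83 to 3.19) and the lowest Fgf1 and epithelial values (1.70 to 2.24).

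Fgf8, a ligand that signals mainly to mesenchymal receptor forms, was measured by 3 probes that disagreed. The brightest, at the 98.1 percentile of Cy3 brightness among all probes, gave ratios of -1.39, -0.86 and 0.11 in KO epithelium, against -0.74, -0.14 and 1.28 in WT epithelium, 0.31, -0.19 and -0.21 in KO stroma and -1.11, -0.95 and -0.09 in WT stroma. These groups overlapped in both genotype comparisons, with differences of -0.85 (SE 0.52, limma adjusted p = 0.691) in epithelium and 0.69 (SE 0.52, adjusted p = 0.506) in stroma. A second probe was well above background on 3 of 12 arrays, at ratios of 0.06 to 0.50 there, and its stromal difference was -0.24, opposite in sign to that of the bright probe. The third stayed at background throughout. Over the 12 arrays 168 other genes had ratios that correlated with the bright probe above 0.95, and the median brightness of these genes stood at the 93 percentile, so the bright probe's course over the arrays was shared with many bright probes. Whether the bright probe reads Fgf8 mRNA was not tested, and no level of Fgf8 is drawn from it.

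Among the receptors, Fgfr3, a receptor found in many epithelia, had 2 kept probes that disagreed. The brighter gave 1.92, 1.79 and 2.76 in KO epithelium, against 0.33, 1.2 and 2.06 in WT epithelium, 0.19, 1.31 and 0.84 in KO stroma and 0.17, 0.77 and 1.19 in WT stroma. KO epithelium did not overlap KO stroma, while the WT compartments overlapped. In KO tumours Fgfr3 was 2.60-fold lower in stroma (-1.38 on the log2 scale with SE 0.31, limma adjusted p = 0.0242), and it was lower in stroma in 6 of 6 tumours. The call was lost without KO tumour 1 (adjusted p = 0.116) or KO tumour 4 (0.109), and without tumour as a block (0.0661). The second probe, well above background on all 12 arrays but dimmer, gave -0.10 for the same step (SE 0.18, adjusted p = 0.752, every probe tested by itself), and its ratios lay between -0.08 and 0.57 on all arrays. The call for Fgfr3 thus rests on 1 of 2 probes. Between genotypes it differed by 0.96 in epithelium (SE 0.47, adjusted p = 0.639) and 0.07 in stroma (SE 0.47, adjusted p = 0.954), neither of which passed.

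Fgfr4, a receptor best known from liver, was dim in the reference, which stayed at background on all 12 arrays for the brighter probe. Its ratios were 2.28, 1.02 and 1.64 in KO epithelium, against 2.44, 2.70 and 2.08 in WT epithelium, 0.16, 0.20 and 1.33 in KO stroma and 1.95, 1.86 and 1.19 in WT stroma. KO stroma replicates 1 and 3 were the lowest arrays and were not well above background. The value was lower in stroma in 6 of 6 tumours, by a mean of -1.08 in KO (SE 0.33, limma adjusted p = 0.0642) and -0.74 in WT (SE 0.33, adjusted p = 0.583), and neither passed. The difference between genotypes in stroma, -1.10 (SE 0.39, adjusted p = 0.128), did not pass either. With Agilent's processed signals these values moved to -2.14 between KO compartments and -2.42 between genotypes in stroma, again without passing (limma adjusted p = 0.0992 and 0.118). A second, dimmer probe was well above background on all 6 stroma arrays but on 1 of 6 epithelial arrays, and its ratios were higher in stroma in 4 of 6 tumours. They differed by 0.09 between the KO compartments, by 0.17 between the WT compartments and by -0.09 between genotypes in stroma, none of which passed. In the tumour channel alone KO stroma was at least 1.52-fold higher, with the KO epithelium at background. For this probe the same reference RNA was 0.39 higher in log2 Cy5 on the stromal slide. On the KO arrays its means were 6.84 in stroma and 6.32 in epithelium. The bound and the detection counts thus cannot be told apart from a slide difference. The 2 Fgfr4 probes thus disagreed on the compartments.

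Fgfr1, a receptor of mesenchymal and many other cells, had 3 kept probes. The brightest stood at the 97.8 percentile of Cy3 brightness, and, as for Fgf8, whether it reads Fgfr1 mRNA was not tested. It gave 0.67, 1.05 and 0.95 in KO epithelium, against 1.49, 0.74 and -0.13 in WT epithelium, 2.11, 1.39 and 2.01 in KO stroma and 1.54, -0.27 and 1.73 in WT stroma. KO stroma lay above KO epithelium in 3 of 3 tumours without overlap, by a mean of 0.95 (SE 0.51), which missed the threshold (limma adjusted p = 0.238). The second probe, well above background on all arrays, gave 0.07 for that step, and 0.48 for KO over WT in both epithelium (SE 0.22, adjusted p = 0.651) and stroma (SE 0.22, adjusted p = 0.246). In epithelium its KO arrays (0.30 to 0.65) did not overlap its WT arrays (-0.36 to 0.14), as was seen for 14.0% of all genes. The third and dimmest kept probe differed by -0.17 between the KO compartments.

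Fgfr2, the receptor whose epithelial form binds Fgf7 and Fgf10, was near the detection limit. Its kept probe was well above background on 7 of 12 arrays, namely 3 in KO epithelium, 2 in WT epithelium and 1 in each stroma group. The ratios were 0.67, 0.54 and 0.09 in KO epithelium, against 0.18, 0.38 and -0.06 in WT epithelium, -0.02, 0.02 and 0.27 in KO stroma and 0.30, 0.09 and 0.00 in WT stroma. The groups overlapped, and the differences lay between -0.34 and 0.26 in the 4 comparisons of groups. With Agilent's processed signals the difference between genotypes in stroma moved from -0.04 to -0.82 and that between KO compartments from -0.34 to -0.95, neither past the threshold (limma adjusted p = 0.454 and 0.34). A probe spotted 10 times per array stayed at background throughout. Changes of Fgfr2 of this size were not detectable above the background of these arrays.

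**Figure D4:**
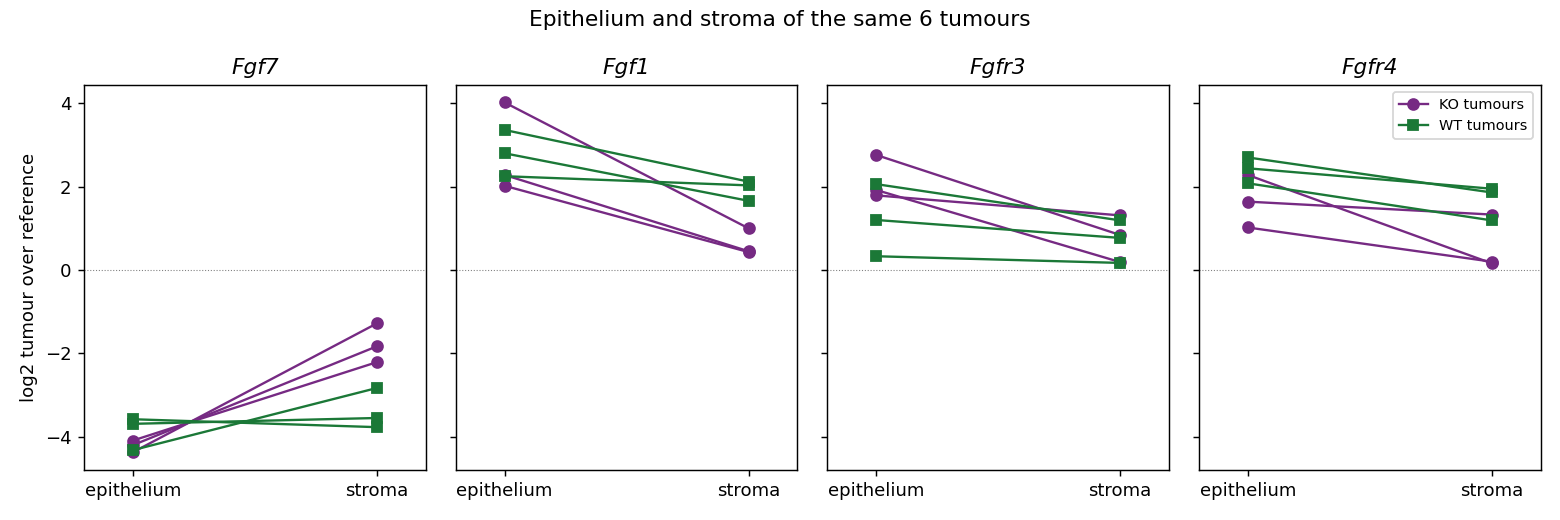
Log2 ratio of tumour over reference (vertical axis) in epithelium and stroma of the same 6 tumours for Fgf7, Fgf1, Fgfr3 and Fgfr4, a line per tumour. By the brightest probe of each gene, as drawn, Fgf1, Fgfr3 and Fgfr4 fall from epithelium to stroma in 6 of 6 tumours, while the dimmer Fgfr3 and Fgfr4 probes fall in 3 of 6 and 2 of 6, and Fgf7 is higher in stroma in 3 of 3 KO and 2 of 3 WT tumours.

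Over the 7 tested genes, KO against WT in epithelium gave 0 calls, where 0.00749% of 13350 genes were called by limma (1 gene, Tspan1) and 8.10% had an unadjusted p under 0.05, a level that none of the 7 reached. The median log2 fold change of the 7 genes was -0.03, against 0.03 over all genes. In stroma it was 0.07 against -0.01, with 1 call. Between the compartments of KO tumours 3 of 7 were called, Fgf7 higher and Fgf1 and Fgfr3 lower, where 20.0% of all genes were called (10.2% higher and 9.86% lower). The median of the 7 genes was -0.34 against -0.03 over all genes, and 4 of 7 had compartments without overlap, against 36.9% of all genes. These were Fgf7, Fgf1, Fgfr3 and Fgfr1, of which Fgfr3 and Fgfr1 did so by their brightest probes alone. In WT tumours 0 of 7 were called, where 0.00749% of all genes were (1 gene, Serpinb1a), and 8.82% of all genes and 1 member, Fgf1, had an unadjusted p under 0.05. Fgf1 and, by its brighter probe alone, Fgfr4 had WT compartments without overlap (2 of 7, against 10.5% of all genes). For the difference of the genotype effect between compartments Fgf7, Fgf1 and Fgf8 had an unadjusted p under 0.05 (3 of 7, against the 18.1% given above) and tumours without overlap between genotypes (against 24.3% of all genes), and none passed after adjustment (adjusted p = 0.141, 0.226 and 0.215). The Fgf8 value here (1.53) is that of the bright probe, from which no level of Fgf8 is drawn, and the second kept probe gave -0.13. The comparisons share arrays, so the values are given side by side only.

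**Figure D5:**
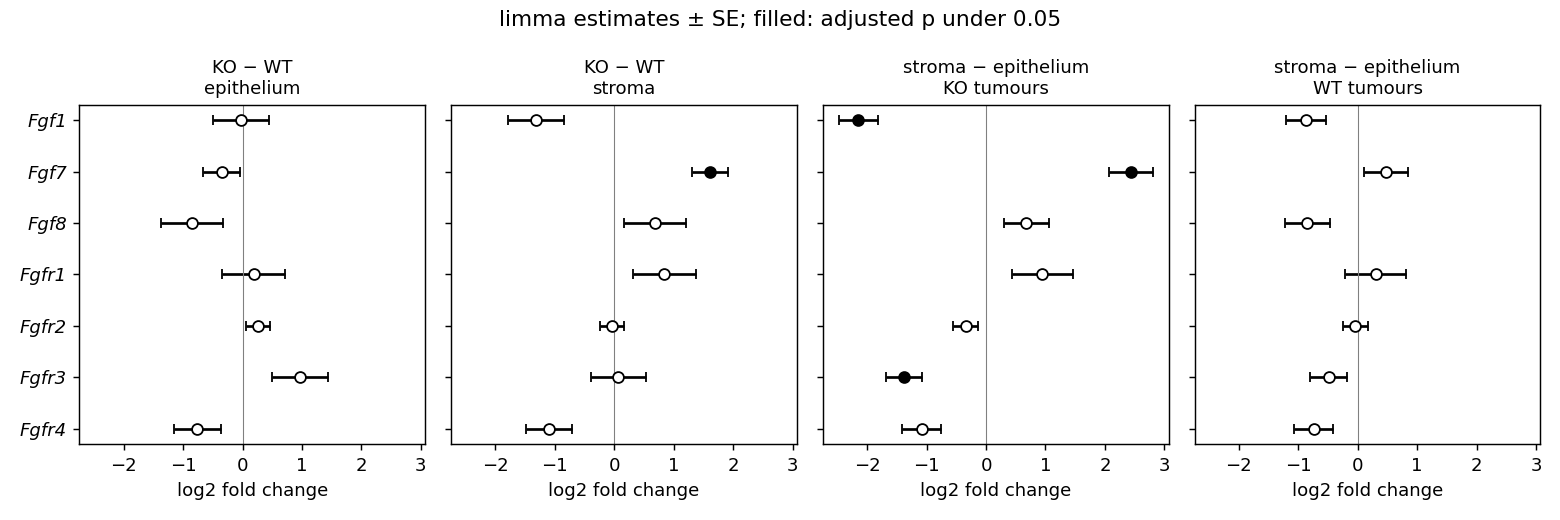
Log2 fold changes (horizontal axis) with SE of the 7 tested genes in 4 comparisons, filled where the limma adjusted p was under 0.05. Fgf7 is filled in KO against WT stroma and Fgf7, Fgf1 and Fgfr3 between the compartments of KO tumours.

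The genes whose ratios ran most like each member over the 12 arrays were named by their Pearson correlation, as a description without a test, since the arrays share compartment and slide. Nearest to Fgf7 were Ccl24, the gene of a chemokine (r = 0.985), Agpat4 (0.98) and Cdc42ep2 (0.98). Nearest to Fgf1 were Ermp1 (0.959), Nipal2 (0.956) and Scin (0.956). The bright Fgf8 probe ran with Tekt2, Rnf25 and B4galt3 (0.998 each). For the receptors the nearest genes were Camkk2 for Fgfr1 (0.988), Mrm3 for Fgfr2 (0.862), Rexo5 for Fgfr3 (0.947) and Gm5458 for Fgfr4 (0.933).

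Of 16 further genes of the FGF family 5 were tested, among them Fgf11 and Fgf13, which are not classed as secreted ligands. Fgf9, a ligand known for its part between epithelium and mesenchyme of the embryonic lung, was the single one called. This was between the compartments of KO tumours, where 20.0% of all genes were called. The Fgf9 ratios were 2.37, 0.45 and 2.51 in KO stroma against -0.82, -0.77 and -0.55 in KO epithelium, where it was not well above background. From the tumour channel this is at least 3.62-fold higher in stroma, with the bound taken from the lowest signal well above background on each array and open to dye bias (log2 fold change of ratios 2.49, SE 0.50, limma adjusted p = 0.0178). In WT stroma the ratios were 0.57, -0.59 and 1.42, and the KO arrays overlapped them. The difference between genotypes in stroma was 1.31 (SE 0.57, adjusted p = 0.207). This difference passed without KO stroma replicate 3. The KO compartment call was lost without KO tumour 1 or KO tumour 4, and Fgf18 was also called there without WT tumour 2 or 3. The median of the 5 genes was 0.49 for KO against WT stroma and 0.39 for KO stroma against epithelium.

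Co-receptors and carriers, which hold or present FGFs, gave calls between the compartments of KO tumours, 2 higher and 2 lower in stroma of 7 tested (median 0.08), where 10.2% of all genes were called higher and 9.86% lower. The adhesion molecule gene Ncam1 was 5.42-fold higher in stroma and Flrt1 2.97-fold higher, while Flrt3, whose protein can bind FGF receptors, was 2.08-fold lower and the ligand carrier gene Fgfbp3 1.82-fold lower (limma adjusted p = 0.0214, 0.0193, 0.0121 and 0.0305). Flrt3 ratios were 1.65, 1.72 and 1.56 in KO epithelium against 0.63, 0.96 and 0.17 in KO stroma, and its other kept probes gave -1.43 and -0.86 for this step. Without KO tumour 1 none of these 4 calls remained, without tumour 3 Flrt3 and Ncam1 did, and without tumour 4 Fgfbp3 did. Of the 7 genes 0 were called between genotypes in either compartment, and the smallest p in stroma was that of Flrt3 (-0.61, SE 0.22, adjusted p = 0.125).

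Genes of heparan sulfate, the sugar chain that FGFs need to bind their receptors, gave calls in stroma. In KO against WT stroma 4 of 17 were called higher and 0 lower (median 0.53), where 3.51% of all genes were called higher. Sdc3, the gene of the cell surface carrier syndecan 3, had ratios of 1.40, 1.46 and 1.11 in KO stroma against -0.07, -0.05 and -0.49 in WT stroma, a 2.89-fold difference without overlap (limma adjusted p = 0.00685). Hspg2, the gene of the matrix carrier perlecan, was 4.72-fold higher (adjusted p = 0.0178), but a second probe gave a log2 fold change of 0.30. The glypican gene Gpc3, well above background on 3 of 3 KO but 1 of 3 WT stroma arrays, was 4.19-fold higher by its ratios (adjusted p = 0.0488) and the sulfotransferase gene Hs6st2 1.96-fold (adjusted p = 0.0316). With any 1 of the 6 stromal arrays left out, 1 to 4 of the 17 were called, Sdc3 each time, with Sdc3 alone without KO stroma replicate 1 or WT stroma replicate 2. The Gpc3 call was lost with any 1 of the 12 arrays left out except KO stroma replicate 4. Between the compartments of KO tumours 6 of 17 were called higher in stroma and 0 lower (median 0.52), where 10.2% of all genes were called higher. These were the same 4 genes, in a comparison that shares the KO stroma arrays, together with Sulf1, which encodes an enzyme that trims sulfate from the chains (9.78-fold, adjusted p = 0.0078), and Ext1, which encodes a chain-building enzyme (2.65-fold, adjusted p = 0.0176). The second Hspg2 probe gave 0.46 here. With a tumour left out 4 of the 17 were called higher each time, always with Sdc3, Hspg2 and Sulf1. In epithelium between genotypes and between WT compartments 0 of 17 were called.

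Receptor adaptors and kinases such as Frs2, Grb2 and the MAP kinases gave 0 calls of 16 tested in all 5 comparisons, with medians from 0.04 to 0.23. The smallest stromal p was that of Ptpn11, the gene of a phosphatase that passes the receptor signal to Ras (0.75, SE 0.25, limma adjusted p = 0.11). Response and feedback genes gave 1 call higher and 2 lower of 13 tested in KO against WT stroma (median 0.09), where 3.51% of all genes were called higher and 2.87% lower. Il17rd, which encodes Sef, a feedback inhibitor of FGF receptors, had ratios of 0.84, 0.70 and 1.01 in KO against -0.43, -0.91 and 0.00 in WT stroma and was 2.45-fold higher (adjusted p = 0.0286). Ccnd1 had ratios of -0.88, -0.53 and -0.57 in KO against 0.81, 0.20 and 0.08 in WT stroma and was 2.04-fold lower (adjusted p = 0.0283). Myc, a growth regulator that many signals induce, was 3.02-fold lower (adjusted p = 0.0425). Both Ccnd1 and Myc are also known targets of the Wnt pathway, and the part of the lower epithelial markers of the same samples was not tested. None of the 3 calls remained without KO stroma replicate 1, 3 or 4 or WT stroma replicate 1 or 2, and that of Myc was also lost without any 1 of the epithelial arrays other than WT replicate 3. Between the compartments of KO tumours Etv1, a transcription factor gene of the Etv family, was 3.29-fold and Il17rd 1.68-fold higher in stroma and Ccnd1 3.47-fold lower (adjusted p = 0.0285, 0.02 and 0.00242), with a median of -0.11 over the 13 genes, and without any 1 of the KO tumours only Ccnd1 of the 3 was still called. The Etv1 call was also lost without WT tumour 1. The response genes called thus differed in direction.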

How the data were processed

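RNA of 12 microdissected samples was read against a common reference. Per the file headers, the arrays were scanned as 2-colour arrays and read with Agilent Feature Extraction 10.7.3.1. The deposited scanner files hold, per the file headers, a median intensity and a local background for every spot, quality flags and the log10 of red over green. The deposited table of log2 values comes with no account of its making in the sources used here. Its epithelial columns run as reference over sample (r between -0.996 and -0.976 with each array's sample over reference, over spots above background in both colours) and its stromal columns went with no array (r between -0.00834 and 0.0054) and were not used. The medians of its columns lay between -0.05 and 0.05.

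The normexp method (offset 50) and loess within arrays, control spots at weight 0, were applied to the median signals, and ratios were turned to tumour over reference. Of an array's 62976 spots 3671 are controls. Non-uniform spots, 3 to 211 per array, were set missing. Spots were averaged to 55681 probes, of which 27235 were named through a RefSeq table of GRCm38.p6. Probe coordinates are left out because the headers name a different build. Probes with tumour signal well above background on 3 or more of 12 arrays were kept, and a gene was represented by its brightest. This left 13350 genes for limma 3.58.1 under R 4.3.3, with p-values adjusted by Benjamini-Hochberg over all of them and a threshold of 0.05. Genotypes were compared from 4 group means over 12 arrays. For compartments and for the interaction, tumour entered as a block. The pairing comes from the number in the titles, and deviations from group means correlated at 0.091 to 0.454 within tumours and at most 0.0215 between a tumour's epithelium and another stroma of its group. The fits were tested on simulated data with known changes in the 4 comparisons of groups. Of the genes changed by 1 on the log2 scale, 23.1% to 39% were called. For changes of 2 and 3 these shares were 67.2% to 76.8% and 86.8% to 91.7%. False calls numbered 4 to 13 per comparison. A difference near 1 that did not pass may thus be a missed one. Each simulation changed many genes at once, and with few changed genes the adjusted threshold is stricter. The shares may therefore be too high for epithelium between genotypes and for WT compartments, where 1 gene each was called.

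The members, the lists and the naming rule (all 10 members, and of each list up to 4 called genes with the smallest p per comparison, or 2 where none passed, of which some are described, and the 3 genes most alike each member) were chosen with earlier results of these data known.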

Additional observations from a re-analysis of the deposited data

Results flagged for a closer look

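The Fgf3 probe, too dim for the tests, was well above background on KO epithelium replicate 1 alone, with a log2 ratio of 1.71, above the highest of the 6 WT arrays (0.28). It was picked out as a signal outside the genes tested, after its values had been seen, and it comes from 1 spot on 1 array.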

How the results depend on the processing

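Over 18 alternatives Fgf7 and Fgf1 kept their calls and directions between the compartments of KO tumours (Fgf7 from 2.12 to 3.08, Fgf1 from -2.83 to -1.71). For both genes, omitting a WT array or averaging the kept probes, of which each has 1, leaves these estimates as they are. The Fgf7 call between genotypes in stroma held under 14 of 20 alternatives and was also lost with median centring in place of loess (adjusted p = 0.104), and the Fgfr3 call in KO tumours held under 11 of 18 and was also lost with Agilent's processed signals (0.0572) and with median centring (0.0716). Among the 20, those that omit an epithelial array cannot change the stromal Fgf7 difference itself. Genes called in stroma between genotypes numbered 550 with processed signals, 201 with median centring (50 higher and 151 lower, in place of 468 and 383 of 851), 292 in the stromal arrays alone and 175 to 931 with an array left out (175 without WT stroma replicate 1, 315 without KO stroma replicate 1, 361 without WT stroma replicate 2 and 518 without KO stroma replicate 3). In epithelium 1 gene became 0 with processed signals, in the epithelial arrays alone and in the deposited table, and 0 to 1 with an array left out. The count in KO tumours became 1530 with median centring and 1095 to 2719 with an array left out, lowest without KO tumour 4, with 1151 without KO tumour 3 and 1217 without KO tumour 1. The 1 gene in WT tumours became 0 with processed signals, with median centring, with no replicate block and with any array left out (0 to 0). For the difference of the genotype effect 0 genes became 22 with no filter on dim probes, 50 with no replicate block and 0 to 144 with an array left out (144 without WT tumour 3). With tumour as a random replicate block (correlation 0.224) 824 genes were called in stroma and 1 in epithelium, and with the replicate number as a fixed block 693 and 1.

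Signs turned only for differences that had not passed. In epithelium Fgf1 became 0.10 with processed signals, -0.65 to 0.35 with an array left out (0.22, 0.35 and 0.25 without KO replicates 1 and 4 and WT replicate 2), 0.39 with the number as a block and 0.05 in the deposited table, and Fgfr1 became -0.11 with median centring, -0.23 to 0.58 with an array left out (-0.23 without WT replicate 3) and -0.18 with the number as a block. In stroma Fgfr2 became -0.13 to 0.05 with an array left out (0.02 and 0.05 without KO or WT replicate 1) and 0.04 with the block, and Fgfr3 became -0.20 to 0.36 (-0.20 without KO replicate 3 or WT replicate 1) and -0.08 with the block. Between WT compartments Fgf7 (-0.02 to 0.82) and Fgfr1 (-0.48 to 0.95) turned to the lower value without tumour 3, and Fgfr2 became 0.37 with processed signals and 0.09 without tumour 2. The difference of the genotype effect became -0.01 for Fgfr1 without WT tumour 2 (-0.01 to 1.43 with a tumour left out) and 0.17 for Fgfr4 without KO tumour 1 (-0.73 to 0.17 with a tumour left out, and -1.07 with processed signals). Median centring moved the median of all genes in epithelium to -0.17. The cause of these changes was not tested, except that a lone fit or an omitted array leaves fewer samples. The test of every kept probe by itself and the counts of list genes with an array left out were chosen after seeing the data.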
